A study of Canis lupus familiaris with 2 samples.

Results

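The miRNAs described here are 29 array probes for miRNAs known as markers of tissues other than epithelium: blood, connective-tissue stroma, endothelium, muscle, nervous tissue, liver and pancreas. They were chosen by name from a list of 31 miRNAs, and they are 29 of the 291 dog miRNA probes on the array. No probe named miR-486, miR-199a or miR-199b was analysed here, and miR-219 was represented by both of its arms. The cells were SNP cells, a canine mammary gland tumour cell culture. The spheroid sample was grown from non-adherent SNP cells that had been selected from the growth medium and cultured without added basement membrane or matrix material. The monolayer sample was the adherent SNP culture, kept in RPMI medium with fetal bovine serum and antibiotics. Both were harvested with trypsin near confluence, and the RNA integrity was 9.7 for the spheroids and 9.8 for the monolayer. Each culture form gave 1 total RNA sample on 1 array, so selection, culture form, culture and array cannot be told apart. The values below have no replicates behind them, and samples could not be tested against each other.

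Tissue-marker miRNAs are small RNAs whose genes are switched on mainly in 1 lineage, where they repress many mRNAs of other fates. miR-142 and miR-223 mark blood cells, miR-143 and miR-145 smooth muscle and fibroblasts, and miR-126 endothelium. miR-1 and the miR-133 family mark striated muscle, miR-124 marks neurons, miR-122 hepatocytes, and miR-375 and the miR-216 and miR-217 cluster the pancreas. In a culture of tumour cells such miRNAs show which other programmes, or which other cells, are detectable in the RNA. In bulk RNA, fewer cells of a type and less RNA per cell cannot be told apart.

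A miRNA was scored as present in a culture when the raw Cy5 intensity of its spot exceeded the mean plus 2 SD of that array's blank spots. The blank spots averaged 76.7 ± 1.55 on the spheroid array and 85.1 ± 2.37 on the monolayer array (SD over 1268 spots each). The limits were therefore 79.8 and 89.8 intensity units. Some spots without a miRNA also lay above them: 8.10% of the 1408 blank spots on the spheroid array and 7.10% on the monolayer array. Of the 181 spots named No Probe, 21.0% were above the limit on the spheroid array and 12.2% on the monolayer array. The background also varied over the slide, since the blank means of the 32 blocks ran between 75.2 and 79.6 on the spheroid array and between 81.9 and 88.7 on the monolayer array. The 29 probes lay in 20 of these blocks. Distances from the blank mean are given below in SDs of the blank spots. They place a probe against its own array, and are not compared between arrays, whose blank spots had different spreads. Nor does the order of the intensities of different probes give an order of abundance.

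Most of these markers were at or close to background in both cultures. Of the 29 probes, 14 (48.3%) were detected in the spheroids, against 69.1% of all dog miRNAs on that array. In the monolayer 11 (37.9%) were detected, against 61.9% of all dog miRNAs. The same 11 were detected in both cultures (37.9%, against 61.2% of all probes). Another 3 were detected in the spheroids alone, none in the monolayer alone and 15 in neither. Of the other 262 dog miRNAs, 20 were detected in the spheroids alone, 2 in the monolayer alone and 73 in neither. By tissue, the spheroids had 2 of 5 blood probes, 2 of 4 stromal, 0 of 1 endothelial, 5 of 8 muscle, 2 of 6 neural, 1 of 1 liver and 2 of 4 pancreatic probes. The monolayer had the same counts for blood, stroma, endothelium, muscle and nervous tissue, and 0 of 1 liver and 0 of 4 pancreatic probes. At the stricter limit of 5 SD above the blank mean, 7 probes remained in the spheroids (24.1%, against 57.4% of all probes) and 6 in the monolayer (20.7%, against 45.7%). Of these, 4 were above it on both arrays (13.8%, against 43.6%): miR-199, miR-214, miR-133b and miR-128.

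**Figure D1:**
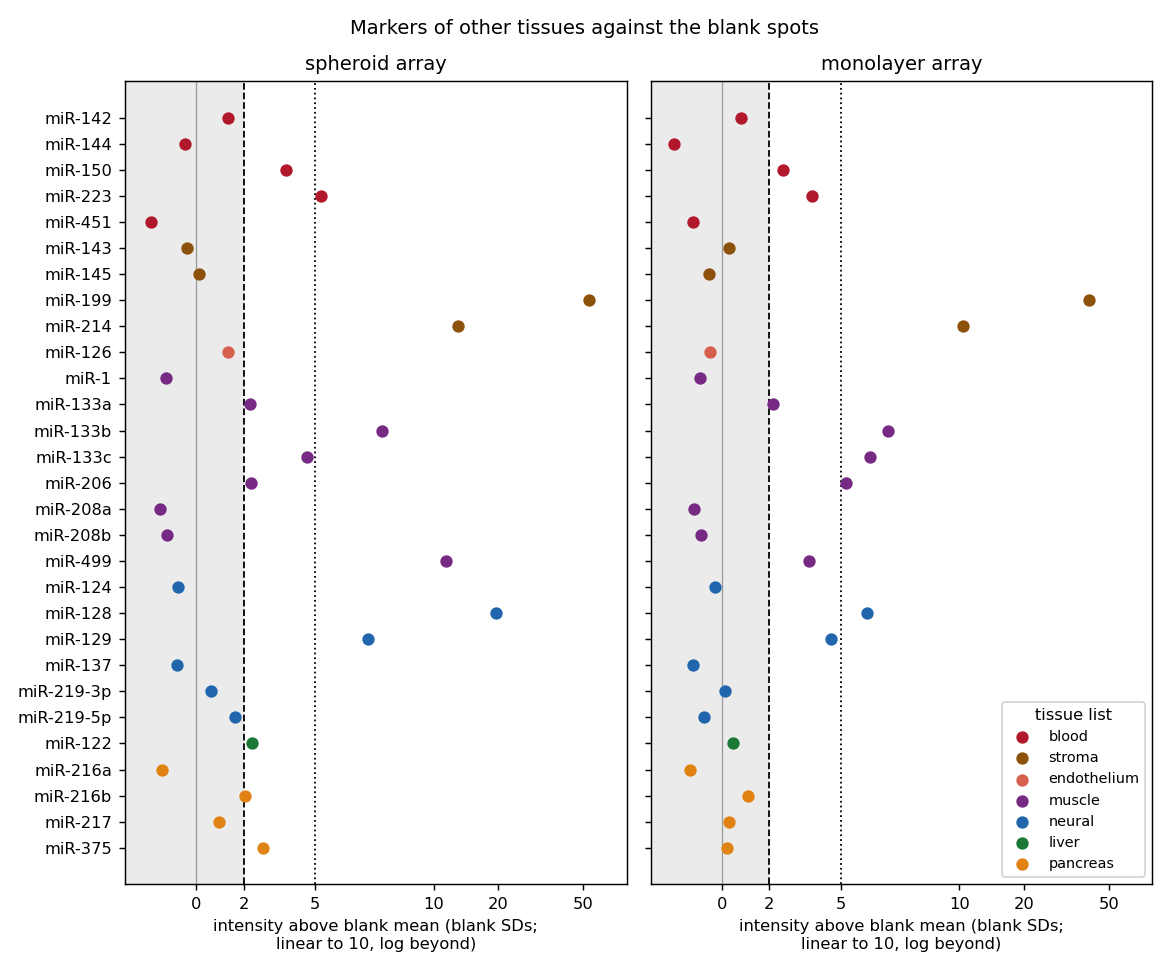
Intensity of the 29 marker probes above the blank mean in SDs of the blank spots (horizontal axis, linear to 10 and logarithmic beyond), with the spheroid array on the left and the monolayer array on the right. Each point is 1 spot, colours give the tissue list, the dashed line is the 2 SD limit and the dotted line 5 SD. miR-199 stands farthest to the right on both arrays, at 53.2 SD in the spheroids and 40.3 SD in the monolayer.

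At higher limits the share of markers stayed below that of the other 262 dog miRNAs on both arrays. At 10 SD above the blank mean, 4 markers (13.8%) remained in the spheroids and 2 (6.90%) in the monolayer. Of the other miRNAs, 52.3% remained in the spheroids and 37.8% in the monolayer. At 20 SD, 1 marker remained on each array, against 39.3% of the other miRNAs in the spheroids and 32.8% in the monolayer.

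**Figure D2:**
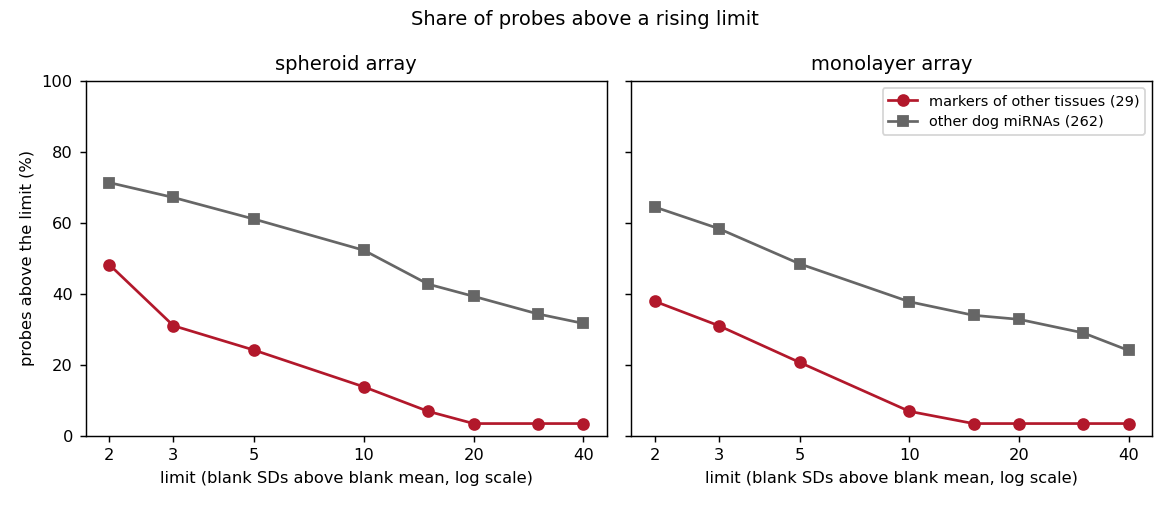
Percentage of probes above a limit set at 2 to 40 blank SDs over the blank mean (horizontal axis, logarithmic), for the 29 markers of other tissues and the other 262 dog miRNAs, with spheroids on the left and monolayer on the right. The markers lie below the other miRNAs at each limit on both arrays, at 24.1% against 61.1% for 5 SD in the spheroids and 20.7% against 48.5% in the monolayer.

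Epithelial markers on the same arrays were set beside these probes for comparison. All 7 epithelial markers, miR-141, miR-200a, miR-200b, miR-200c, miR-203, miR-205 and miR-429, were detected on both arrays, against 61.2% of all probes. In the monolayer miR-200a and miR-200b were dim, at 3.16 and 3.25 SD above the blank mean, and cleared 6 of the 9 limits described below. In the authors' deposited values, which are normalized intensities on a linear scale, their values summed to 1864 in the spheroids and 1246 in the monolayer, although miR-205 alone had 27.6 in the spheroids and 170.0 in the monolayer. The sums were 6.43% and 4.72% of the summed miRNA intensity of those arrays. The detected markers of other tissues summed to 106 in the spheroids and 133 in the monolayer, or 0.367% and 0.504%. Sums over probes depend on how strongly each probe binds, so they describe signal and not molecules.

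The stromal list was divided between a pair well above background and a pair at background. miR-199, which in mouse and human is made from a transcript antisense to dynamin genes and is abundant in fibroblasts, had raw intensities of 159 in the spheroids and 181 in the monolayer. No blank spot reached either value. Its deposited values were 41.05 in the spheroids and 58.3 in the monolayer. miR-214, which shares one such transcript with miR-199, had raw intensities of 96.9 in the spheroids and 110 in the monolayer, 13.0 and 10.4 SD above the blank means. These were the only 2 of the 29 probes that cleared every 1 of 9 detection limits tried on both arrays. That count was not made over all dog miRNAs. The brightest No Probe spot was at 102.6 in the spheroids and 159.5 in the monolayer. miR-214 lay below it on both arrays, and miR-199 above it on both. In the RefSeq gene table the genes of miR-199 overlap DNM1, DNM2 and DNM3, and the copy in DNM3 lies within 10 kb of the miR-214 gene. The array's miR-199 probe carries no letter, so it cannot say which of the 3 miR-199 genes the signal came from.

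The other stromal pair, miR-143 and miR-145, comes from 1 cluster that is highly active in smooth muscle and fibroblasts. miR-143 had raw intensities of 76.2 in the spheroids and 85.9 in the monolayer, and 840 and 535 of the 1408 blank spots were at least as bright. miR-145 had 76.9 in the spheroids and 83.9 in the monolayer, with 609 and 903 blank spots at least as bright. Neither member of the cluster passed the limit in either culture. Against the blank spots of its own block, miR-143 was 2.31 SD above background in the monolayer and -0.62 SD in the spheroids, so that choice of background moved it over the limit in the monolayer.

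Muscle markers differed among themselves. miR-1, made in all striated muscle, was at background, with 74.8 in the spheroids and 82.97 in the monolayer. miR-208a and miR-208b, encoded within the heart myosin genes MYH6 and MYH7, were also at background, with 74.4 and 74.8 in the spheroids and 82.3 and 83.04 in the monolayer. All 3 lay below the blank means of both arrays. miR-499, encoded within the related gene MYH7B, was above the limit in both cultures. Its raw intensities were 94.4 in the spheroids and 93.7 in the monolayer, which were 11.4 and 3.65 SD above the blank means, and its deposited values were 8.80 and 5.28. In the monolayer miR-499 cleared 6 of the 9 limits, and 16 blank spots were at least as bright. Of this set of miRNAs nested in myosin genes, the detected member was thus the one in MYH7B.

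The miR-133 family and miR-206, which promote muscle cell growth and differentiation, were dim. miR-133b had raw intensities of 88.8 in the spheroids and 102 in the monolayer, above all blank spots of its array in both cases. miR-133c had 83.98 in the spheroids and 99.9 in the monolayer, with 12 blank spots at least as bright in the spheroids and 0 in the monolayer. miR-133a had 80.3 in the spheroids and 90.2 in the monolayer, just over the limits, with 91 and 82 blank spots at least as bright. Against the blank spots of its own block, which was among the brighter ones, miR-133a was 0.28 SD above background in the spheroids and 1.04 SD in the monolayer, and so not detected on either array. The 3 miR-133 miRNAs are nearly identical in sequence, and cross-binding between their probes was not tested. miR-206, the skeletal muscle relative of miR-1, had 80.3 in the spheroids and 97.5 in the monolayer. It cleared 1 of the 9 limits in the spheroids and 8 in the monolayer. In the spheroids 88 blank spots were at least as bright as its spot, and in the monolayer 0 were.

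Neighbouring muscle miRNA genes were not always detected together. RefSeq places a miR-1 gene within 10 kb of miR-133a and a second miR-1 gene within 10 kb of miR-133c. miR-1 was not detected in either culture, while miR-133c was above background in both. miR-206 and miR-133b are also neighbours, and both were above the limit on both arrays, though miR-206 cleared only 1 of the 9 limits in the spheroids. Of the other neighbours among the markers, miR-199 with miR-214 were both detected, and miR-143 with miR-145, miR-144 with miR-451 and miR-216a with miR-217 were each detected in neither culture.

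Among the neural markers, miR-124, the most abundant neuronal miRNA, was at background, with 75.6 in the spheroids and 84.4 in the monolayer. miR-137, a regulator of neural progenitors, had 75.5 in the spheroids and 82.3 in the monolayer. The arms of miR-219, a miRNA of oligodendrocytes, had 77.7 and 79.3 in the spheroids and 85.5 and 83.3 in the monolayer, all under the limits. miR-128, which is enriched in brain but encoded within the genes R3HDM1 and ARPP21, was above background in both cultures. Its raw intensities were 107 in the spheroids and 99.6 in the monolayer, and no blank spot of either array was as bright. miR-129 had 88.0 in the spheroids and 96.0 in the monolayer, 7.25 and 4.60 SD above the blank means, with 0 and 3 blank spots at least as bright. The neural list was thus detected through miR-128 and miR-129, without its defining member miR-124.

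Among the blood markers, miR-451 and miR-144, which share an erythroid cluster, lay below the blank means. miR-451 had 73.8 in the spheroids and 82.2 in the monolayer, and miR-144 had 76.0 and 80.4. miR-142, made in nearly all haematopoietic cells, had 78.8 in the spheroids and 87.0 in the monolayer, under both limits. Against its own block it was 2.30 SD above background in the spheroids and -0.04 SD in the monolayer. miR-223, a myeloid miRNA, was detected, with 84.9 in the spheroids and 94.04 in the monolayer, and 5 and 13 blank spots were at least as bright. miR-150, a lymphocyte miRNA, was detected with 82.6 in the spheroids and 91.2 in the monolayer, with 25 and 55 blank spots at least as bright. Deposited values were 4.05 in the spheroids and 5.46 in the monolayer for miR-223, and 2.93 and 3.72 for miR-150. At 5 SD, miR-223 in the spheroids was the single blood call left.

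The endothelial marker miR-126, encoded within EGFL7, had 78.8 in the spheroids and 83.95 in the monolayer and was detected in neither culture under any of the 9 limits. The liver marker miR-122 had 80.4 in the spheroids and 86.2 in the monolayer. It passed the limit in the spheroids, where 86 blank spots were at least as bright, but it was 1.20 SD above the blank spots of its own block and passed none of the other 8 limits. The pancreatic markers miR-216a and miR-217 were detected on neither array, with 74.5 and 78.2 in the spheroids and 81.9 and 85.8 in the monolayer. miR-216b had 79.95 in the spheroids, just over the limit, and 87.7 in the monolayer. Against its own block, miR-216b was 3.04 SD above background in the spheroids and 2.25 SD in the monolayer, so that it counted as detected in both. miR-375, a miRNA of islets and of some glandular epithelia, had 81.1 in the spheroids and 85.6 in the monolayer and cleared 4 of the 9 limits in the spheroids and 0 in the monolayer.

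For the 3 markers detected in the spheroids alone, no fold could be given. The deposited values of miR-122, miR-216b and miR-375 in the spheroids were 1.82, 1.60 and 2.19, and the dimmest detected miRNA of the monolayer stood at 3.06. A spot at the detection limit corresponds to a deposited value of 1.54 in the spheroids and 2.89 in the monolayer. Lower bounds on this scale and on the normalized log2 scale were all under 1-fold.

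**Figure D3:**
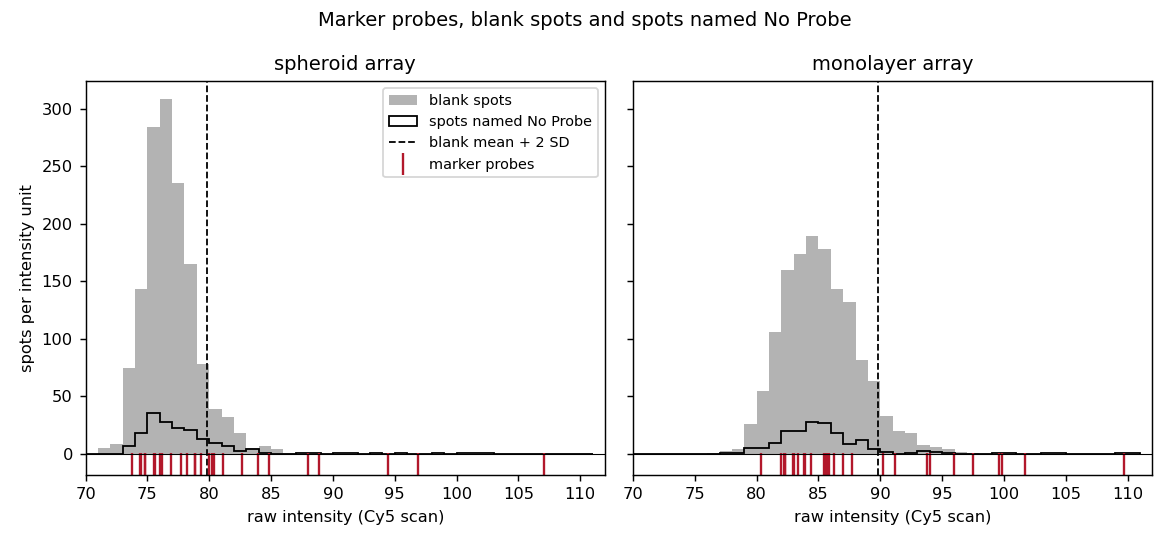
Histograms of the raw intensities of blank spots (grey) and of spots named No Probe (outline) in bins of 1 intensity unit, with the 29 marker probes as red ticks under the axis, for spheroids on the left and monolayer on the right. The dashed lines are the limits of 79.8 and 89.8. miR-199 lies beyond the axis and is not drawn, and neither is the brightest No Probe spot of the monolayer array, at 159.5. Most ticks fall inside the range of the blank spots, which ended at 86.1 in the spheroids and 97.1 in the monolayer.

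The presence calls split into firm and marginal ones when the limit was changed. At 3 SD above the blank mean, 9 markers remained in the spheroids (31.0%, against 63.6% of all probes) and 9 in the monolayer (31.0%, against 55.7%). With the negative control spots in place of the blanks there were 9 in the spheroids (31.0%, against 63.6%) and 10 in the monolayer (34.5%, against 59.8%). Above the highest blank spot there were 6 in the spheroids (20.7%, against 55.3%) and 6 in the monolayer (20.7%, against 45.7%). Above the 95th percentile of the No Probe spots there were 6 in the spheroids (20.7%, against 54.6%) and 2 in the monolayer (6.90%, against 37.5%). Over the 9 limits, 13 of the 29 probes cleared none on either array: miR-144, miR-451, miR-145, miR-126, miR-1, miR-208a, miR-208b, miR-124, miR-137, both arms of miR-219, miR-216a and miR-217. The number clearing none was not counted over all probes, so these 13 have no share to be set against. In the spheroids, miR-199, miR-214, miR-133b, miR-499, miR-128 and miR-129 cleared all 9 (20.7%, against 54.6% of all probes). In the monolayer, miR-133b, miR-133c, miR-206 and miR-128 cleared all but the 95th percentile of the No Probe spots, which was 104 there against 87.1 in the spheroids. When each probe was set against the blank spots of its own block, 12 markers were detected in the spheroids (41.4%, against 66.0% of all probes) and 12 in the monolayer (41.4%, against 60.8%). Of these, 10 were detected on both arrays (34.5%, against 58.8%). Another 2 were then detected in the spheroids alone, miR-142 and miR-375, and 2 in the monolayer alone, miR-143 and miR-206. Of the other 262 dog miRNAs, 19 were then detected in the spheroids alone and 4 in the monolayer alone.

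**Figure D4:**
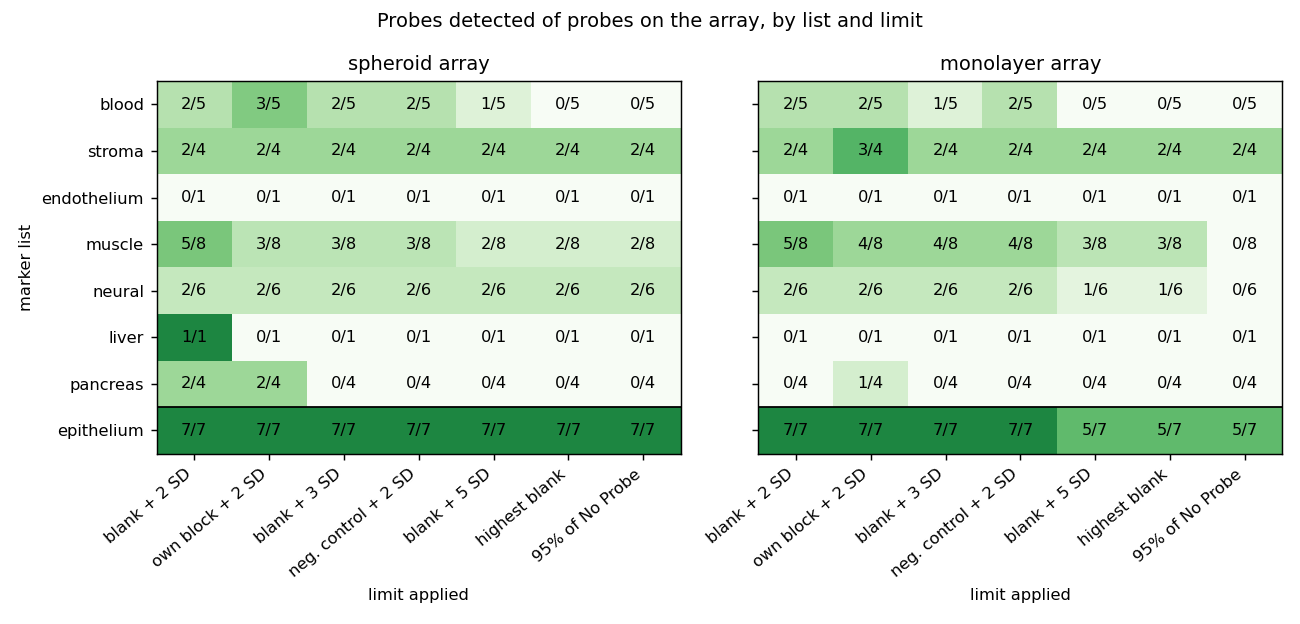
Probes detected of probes on the array for the 7 tissue lists and, below the line, the epithelial list (rows), under 7 of the 9 detection limits (columns), with spheroids on the left and monolayer on the right. Shading gives the percentage of the list that was detected. Stroma stays at 2 of 4 or higher on both arrays, endothelium at 0 of 1, and liver is detected in 1 cell of the plot, the spheroid array at the 2 SD limit.

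Levels of the 11 markers detected in both cultures were compared on a log2 scale after normexp background correction and quantile normalization, as spheroid minus monolayer. None was 2-fold or more apart in either direction, while 2.25% of the 178 miRNAs detected on both arrays were higher and 2.81% lower by that measure. Repeated control spots gave an SD of 0.065 for a log2 difference, which covers spot error and leaves out variation between cultures and arrays. It was taken before quantile normalization, while the differences were taken after it. By more than 2 such SDs, 5 markers were lower in the spheroids (45.5%, against 36.0% of the 178) and 1 was higher (9.09%, against 32.6%). Blank spots gave a larger SD of 0.082. The lower ones were miR-199 (-0.31), miR-206 (-0.26), miR-133c (-0.21), miR-214 (-0.21) and miR-133b (-0.19), and the higher one was miR-128 (0.17). miR-499 was at 0.10, and miR-150, miR-133a, miR-129 and miR-223 were between -0.09 and -0.02. Without scaling, miR-499 was at 0.132 and miR-214 at -0.130, both close to the 2 SD line of 0.130. In all, 9 of the 11 were below 0 (81.8%, against 54.5% of the 178), with a median of -0.09, against -0.05 over the 178. The offset used in the background correction draws the differences of dim spots towards 0.

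On the deposited scale, which keeps dim spots farther apart, 2 of the 11 were 2-fold or more lower in the spheroids (18.2%, against 14.0% of the 178) and 0 were higher (against 12.9%). miR-206 had deposited values of 1.78 in the spheroids and 7.57 in the monolayer, a log2 difference of -2.09. miR-133c had 3.61 in the spheroids and 9.02 in the monolayer, a log2 difference of -1.32. The detection limit itself is 1.87-fold lower for the spheroids on this scale, and its part in these differences was not tested. Above the blank spots of its own block and without scaling, miR-206 stood at 3.21 intensity units in the spheroids and 10.6 in the monolayer, and miR-133c at 7.66 and 14.8. miR-128 ran the other way, with 29.9 units above its block in the spheroids and 12.7 in the monolayer, and deposited values of 15.08 and 8.84. miR-499 likewise had 17.9 units above its block in the spheroids and 10.9 in the monolayer.

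The direction of these differences depended on the setting for 7 of the 11. The split was 2 higher to 9 lower in the main values, 0 to 11 with the 75th percentile scaling and 7 to 4 with the spike controls. Over the 178 miRNAs the splits were 80 to 97, 55 to 123 and 126 to 52. miR-133a, miR-133b, miR-133c and miR-206 were lower in the spheroids under each of the 9 settings, with miR-206 between -2.39 and -0.19 and miR-133c between -1.32 and -0.16. miR-199 and miR-214 were lower in each but the spike control scaling, where they stood at 0.10 and 0.03. miR-128 and miR-499 were higher in each but the 75th percentile scaling, where they stood at -0.13 and -0.24. The 4 miRNAs that kept a negative sign were the detected muscle markers other than miR-499, and they include the near-identical miR-133 miRNAs. The 9 settings are not separate checks. Those with quantile normalization keep the rank order within each array, so their signs must be the same. Median, 75th percentile and no scaling differ by a shift of all miRNAs, as do the deposited values and spike control scaling. miR-133a was not above the limit of its own block on either array. With the blank mean subtracted, 3 of the 11 were 2-fold or more lower in the spheroids (27.3%, against 19.1% of the 178) and 0 were higher (against 9.55%). With the spike controls 1 was lower (9.09%, against 3.37%) and 2 were higher (18.2%, against 38.8%). The median over all 178 miRNAs was itself 0.61 with the spike controls and -0.28 with the 75th percentile. The spike control scaling was applied to intensities with the blank mean subtracted, so it differs from the main values in background correction as well.

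**Figure D5:**
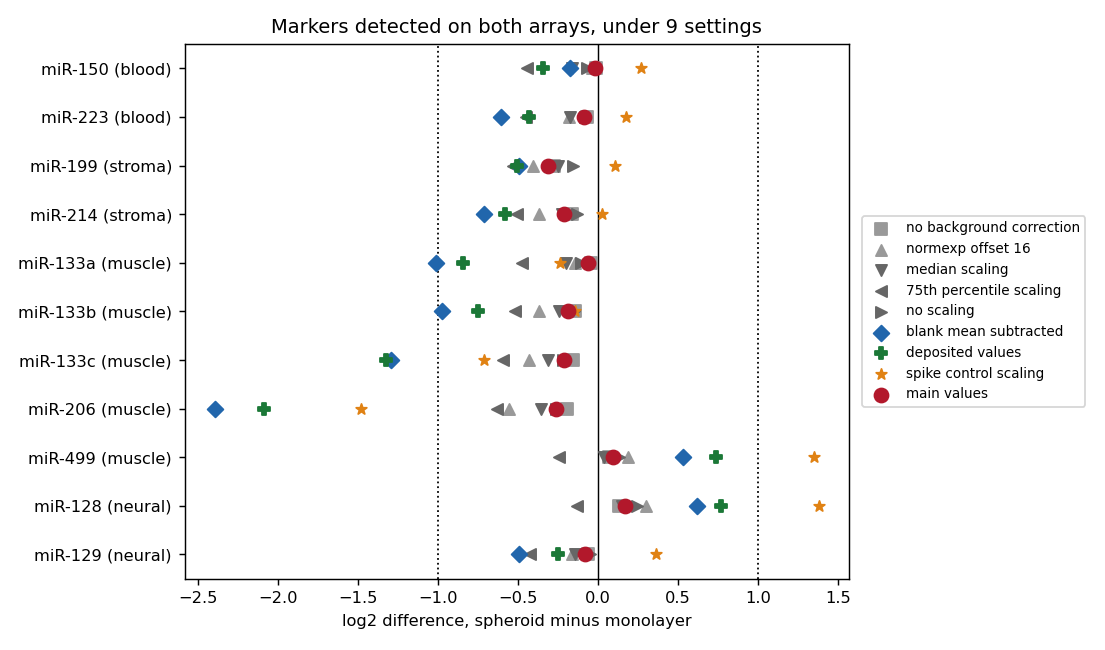
Log2 differences, spheroid minus monolayer (horizontal axis), of the 11 markers detected on both arrays, with 1 symbol per setting of background correction and scaling and the main values in red. Dotted lines mark 2-fold. The points of miR-133a, miR-133b, miR-133c and miR-206 all lie left of 0, and the widest spread is that of miR-206, whose values run between -2.39 and -0.19.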

How the data were processed

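Per the file headers, each scanner table gives a median Cy5 intensity for each of 3200 spots, joined from scans at 3 gains. A second intensity column, headed as background in the files deposited by the authors, was not subtracted. Its median ratio to the spot intensity over all spots was 0.833 in the spheroids and 0.816 in the monolayer. Blank spots were a large part of these, so the ratio does not show how the column behaved at bright spots. Cy5 labelling used a Toray kit, per the labels' protocols, and the scanner is not given in the sources used here. Linear normalized intensities form the authors' value table. They equalled the scanner value minus the blank mean, times 0.498 for the spheroids and 0.611 for the monolayer, within 0.025%, with empty cells for probes at or under the detection limit.

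Blank statistics left out the highest and lowest 5% of the blank spots. The main differences used limma 3.58.1 in R 4.3.3 (normexp on all spots, offset 50, log2, quantile normalization over the 291 miRNAs). These steps were tested on simulated data in which only miRNAs more than 50 units above the blank mean were changed. Of the 29 markers only miR-199 was that bright, so the test did not cover changes in the others. Other steps used Python 3.11.15, numpy 2.4.6, pandas 2.3.3 and matplotlib 3.10.9. Spot error was estimated on 6 control probes, each spotted 8 times. The 9 limits were the main one, blank mean plus 3 or 5 SD, untrimmed blanks, the 95th percentile of the blanks, the negative controls, and 3 chosen after seeing the data (own block, No Probe spots, highest blank). RefSeq genes of assembly UU_Cfam_GSD_1.0 matched all 29 probes, without strand. Each marker detected on either array is named with its values. Members and lists were chosen with earlier results of these data known. No sequences are shown.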

Additional observations from a re-analysis of the deposited data

How the results depend on the processing

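Presence depended on the limit. Against 14 markers in the spheroids and 11 in the monolayer at 2 SD, the spheroids had 9 at 3 SD and with the negative controls, and 7 at 5 SD, where the monolayer had 6. Over all probes the spheroid share was 69.1% at 2 SD, 63.6% at 3 SD and with the negative controls, and 57.4% at 5 SD. The monolayer share was 61.9% at 2 SD and 45.7% at 5 SD. With the highest blank spot as the limit both arrays had 6 (all probes 55.3% in the spheroids and 45.7% in the monolayer). With the 95th percentile of the No Probe spots the spheroids had 6 and the monolayer 2 (all probes 54.6% and 37.5%). The other limits kept the counts within 1.5 times. None of the markers was 2-fold apart in the main values, but 2 were higher with spike control scaling (18.2%, against 38.8% of the 178). With the blank mean subtracted 3 were lower (27.3%, against 19.1%). In the deposited values 2 were lower (18.2%, against 14.0%), and under spike control scaling 1 was (9.09%, against 3.37%). The median log2 difference of the 14 markers detected on at least 1 array was -0.07, against -0.015 over the 203 miRNAs so detected. It was -0.15 with an offset of 16 (-0.03 over the 203), -0.49 with the blank mean subtracted (-0.03), -0.17 with median scaling (-0.02), -0.45 with the 75th percentile (-0.30) and 0.22 with the spike controls (0.66). It was -0.51 over the 11 with deposited values (0.0046 over the 178) and -0.19 over the 9 above 5 SD. miR-199 was at 0.10 and miR-214 at 0.028 with the spike controls, and miR-128 at -0.13 with the 75th percentile. The cause was not tested. Median and 75th percentile scaling shift all miRNAs together from the unscaled values. The spike control scaling starts from intensities with the blank mean subtracted, so it also changes the background correction. No paired analysis was possible because each culture had 1 array, and no value had a replicate check.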
